A study of Mus musculus with 6 samples.

Results

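Elastic fibre genes were followed in mouse heart tissue under Angiotensin II, a peptide hormone that constricts vessels and raises blood pressure. The group holds 10 genes, taken by symbol from the deposited count table: Eln, Fbn1, Fbln1, Fbln2, Fbln5, Mfap4, Mfap5, Efemp1, Efemp2 and Emilin1. All 10 were found among its 49315 genes, and all 10 passed the filter on low counts, which left 14370 genes for testing. RNA came from mid-ventricular tissue of adult mice, 3 libraries from wild-type mice (WT) and 3 from mice with an endothelial cell-specific knockout of TET2, an enzyme that starts the removal of methyl groups from DNA (TET2KO). Every mouse had received Angiotensin II at 1.0 mg/kg/day for 28 days from subcutaneous osmotic minipumps, so the series holds no heart without the peptide. Samples of 1 group are described as biological replicates. Not given in the sources used here are the Cre line, the deleted exons, and the sex and exact age of the mice.

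Elastic fibres give arteries, valves and the interstitium of the heart their recoil. A core of crosslinked elastin is laid down on a scaffold of fibrillin microfibrils. Tropoelastin is brought to that scaffold by short fibulins, crosslinked by lysyl oxidases and held at the edge of the core by proteins such as emilin-1. In heart and vessels these proteins are made mainly by smooth muscle cells and fibroblasts, and by endothelial cells for part of them. The knockout concerns endothelial cells, while the RNA is that of whole tissue, in which fewer cells of a type and less RNA per cell cannot be told apart.

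Levels are CPM, reads scaled to a common library size with TMM factors, as mean ± SD over 3 libraries. Comparisons between genes use the deposited TPM, which divides by length and library total, without TMM factors. TPM of WT and TET2KO are thus on another scale than the CPM fold changes. Log2 fold changes are those of the libraries labelled TET2KO over those labelled WT, ± SE, from edgeR's quasi-likelihood test over all genes that passed the filter with Benjamini-Hochberg adjustment, and a gene "passed" at an adjusted p below 0.05. Libraries held 22124844 to 30418909 reads. Tet2 itself was not lower under the TET2KO label, with 3.90 ± 0.707 CPM under the label WT and 10.99 ± 3.35 CPM under the label TET2KO. Its log2 fold change was 1.49 ± 0.29 (adjusted p = 0.0065), or 0.27 ± 0.17 in the trend-removed estimate described next (adjusted p = 0.21). The knockout is endothelial, the RNA is that of whole tissue and the deleted exons are not given. The Tet2 count therefore cannot settle whether the labels are right. All directions reported follow the labels as deposited. Fold changes followed transcript length across the whole table, with a median of -1.29 among the shortest 1434 genes (transcripts of 1094 nt or less) and 1.38 among the longest 1434 (6549 nt or more). A second estimate, from which a smooth trend on transcript length and GC content was removed for each library, is therefore given beside each first one as the trend-removed value. A true change shared by genes of similar length or GC would be removed with it. TET2KO replicate 2 stood apart from the other TET2KO libraries. Its log2 CPM correlated across genes at 0.958, 0.968 and 0.955 with WT replicates 1, 2 and 3. With TET2KO replicates 1 and 3 the correlations were 0.928 and 0.959. Results without TET2KO replicate 2 are given below.

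Of the 10 elastic fibre genes, 7 were higher in the libraries labelled TET2KO, 1 was lower and 2 did not pass. Eln, Emilin1, Fbln1, Fbln2, Mfap4, Efemp2 and Fbln5 were the genes that were higher, Mfap5 the one that was lower, and Fbn1 and Efemp1 did not pass. Over all genes 33.4% were called higher and 29.4% lower, 62.9% in all. The median log2 fold change of the 10 genes was 1.12, beside 0.046 over all genes tested. With the length and GC trend removed, Mfap4, Efemp2 and Fbln1 were higher, Fbn1, Fbln2 and Fbln5 were lower, and Eln, Emilin1, Mfap5 and Efemp1 did not pass, with a median of 0.055 beside -0.031 over all genes. In that estimate 21.9% of all genes were called higher and 24.3% lower, 46.2% in all. The genes higher in both estimates were thus Mfap4, Efemp2 and Fbln1. Without TET2KO replicate 2 there were 7 higher and 2 lower as counted, with 75.1% of all genes called. There were 3 higher without WT replicate 1 or WT replicate 3, where 42.9% and 41.2% of all genes were called. In the trend-removed estimate 1 gene was higher when any of WT replicates 1 and 3 and TET2KO replicate 3 was left out, with 28.3, 28.6 and 27.4% of all genes called. Scaling by library totals in place of TMM moved the median of all genes to 0.47 and left 0 of the 10 genes lower. Under it 74.2% of all calls were higher, against 53.2%.

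**Figure D1:**
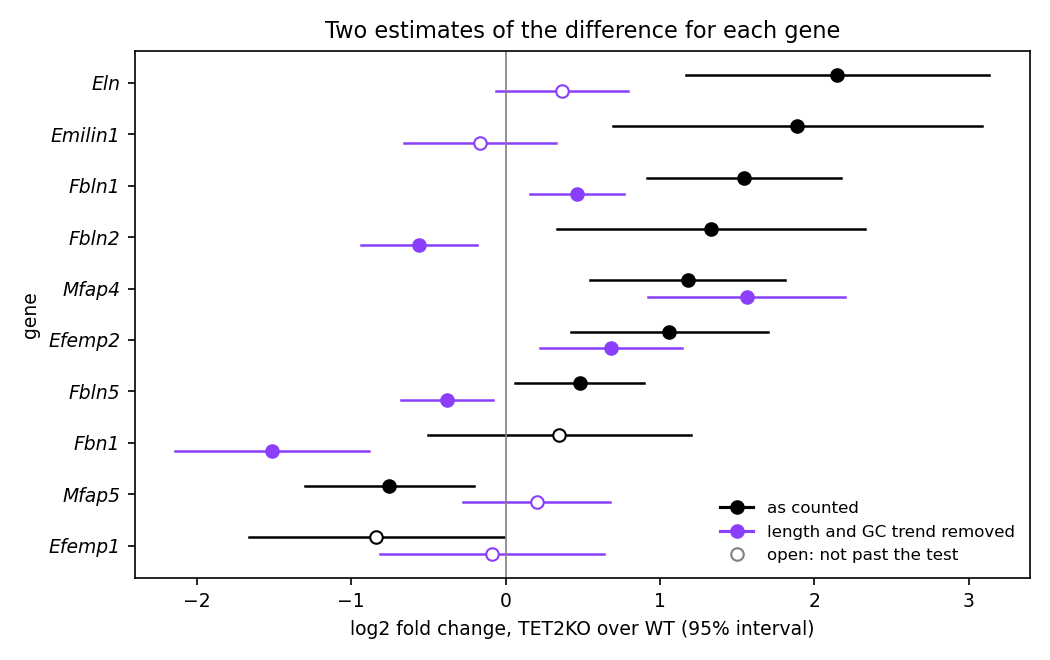
Log2 fold change of each elastic fibre gene (x axis, TET2KO over WT, with 95% interval) as counted (black) and with the length and GC trend removed (purple), where filled circles passed the test and open ones did not. Mfap4, Efemp2 and Fbln1 are filled to the right of 0 in both estimates, while Fbn1 moves from 0.35 to -1.51.

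The starts of 3 of these genes are printed to show the promoter sequence beside 3 different outcomes: Fbln1, higher in both estimates, Fbn1, lower with the trend removed alone, and Efemp1, which passed in neither. Each line holds the 250 bases before the RefSeq transcript start nearest the gene's 5′ end (GRCm38.p6, on the gene's own strand), with capitals at the CpG dinucleotides, the substrate of DNA methylation and of TET2. The windows are chr15:85205699-85205948 on the plus strand for Fbln1, chr2:125506439-125506688 on the minus strand for Fbn1 and chr11:28852955-28853204 on the plus strand for Efemp1. The Fbn1 window lies before a RefSeq start but inside the gene's GENCODE span given below, not upstream of its outermost start.
Fbln1: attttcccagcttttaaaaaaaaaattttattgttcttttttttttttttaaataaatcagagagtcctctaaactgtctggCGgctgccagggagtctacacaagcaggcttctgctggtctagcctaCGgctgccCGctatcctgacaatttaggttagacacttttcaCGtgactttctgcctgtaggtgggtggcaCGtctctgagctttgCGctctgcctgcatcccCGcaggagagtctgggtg
Fbn1: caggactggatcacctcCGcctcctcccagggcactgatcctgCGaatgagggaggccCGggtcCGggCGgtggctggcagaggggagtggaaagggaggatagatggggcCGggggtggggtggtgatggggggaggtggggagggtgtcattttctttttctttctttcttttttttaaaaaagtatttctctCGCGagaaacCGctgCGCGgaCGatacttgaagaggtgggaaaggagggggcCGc
Efemp1: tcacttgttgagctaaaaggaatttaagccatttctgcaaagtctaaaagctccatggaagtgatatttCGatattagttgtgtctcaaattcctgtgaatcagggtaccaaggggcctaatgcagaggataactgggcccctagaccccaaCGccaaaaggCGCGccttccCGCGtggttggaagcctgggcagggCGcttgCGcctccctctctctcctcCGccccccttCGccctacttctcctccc
These windows held 7, 13 and 10 CpG for Fbln1, Fbn1 and Efemp1, beside a median of 6 over the 32851 windows of the RefSeq table (quartiles 2 and 16). RefSeq windows were matched for 7 of the 10 genes. The nearest windows of Fbln5, Efemp2, Fbln2 and Emilin1 held 21, 15, 8 and 4 CpG. For Fbln5 and Efemp2 the bases after that start did not match a GENCODE M21 transcript of the gene. Windows of other RefSeq starts held 27 and 33 CpG for Efemp2, 14 for Fbln1 and 6 for Fbln5. The GC box GGGCGG, searched on both strands, was in 5 of the 7 nearest windows and in 32.7% of all windows. The letters TATAAA, also on both strands, were in 0 of the 7 and in 12.4% of all. The pattern TGANTCA, looser than the AP-1 motif TGA(C/G)TCA, reads alike on both strands. It was in the window of Efemp1 alone and in 6.75% of all windows. The match in Efemp1 reads tgaatca, without the central C or G of the AP-1 motif. A match is a run of letters, and DNA methylation was not measured.

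Eln encodes tropoelastin, the monomer of the elastic core (ENSMUSG00000029675, GRCm38 chromosome 5, 134702593 to 134747323, minus strand, protein coding). In WT the libraries read 6.05, 5.56 and 6.78 CPM (126, 136 and 121 reads), while 36.7, 11.1 and 33.6 CPM (1362, 333 and 1057 reads) were read in TET2KO. The groups did not overlap, as in 73.5% of all genes. The WT libraries lay close together, while TET2KO replicate 2 sat far below the other TET2KO libraries. As counted Eln was higher under the TET2KO label by 4.43-fold (log2 fold change 2.15 ± 0.42, adjusted p = 0.0065), the largest fold change of the 10 genes in that estimate. For a transcript of its length and GC content (3853 nt, 58.8% GC) the trend alone came to 1.63 on the log2 scale. With the trend removed Eln did not pass (0.36 ± 0.19, 95% interval -0.062 to 0.79, adjusted p = 0.14), and its groups, at 10.5, 9.48 and 12.4 CPM against 14.2, 10.7 and 16.5 CPM, overlapped. Without TET2KO replicate 2 the trend-removed log2 fold change of Eln was 0.51 and passed (adjusted p = 0.0061). With a trend on length alone it was 1.58 (adjusted p = 0.00995). In the other 7 of the 9 alternatives of the trend-removed estimate Eln did not pass. Among these was the trend with merged exon length (0.22, adjusted p = 0.30).

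Fbn1 encodes fibrillin-1, the main structural protein of the microfibril (ENSMUSG00000027204, chromosome 2, 125300594 to 125507993, minus strand). Fbn1 stood at 61.7, 41.6 and 29.1 CPM in the WT libraries, against 81.1, 34.1 and 53.5 CPM under the TET2KO label. The groups overlapped, and Fbn1 did not pass as counted (0.35 ± 0.37, 95% interval -0.50 to 1.199, adjusted p = 0.42). Its transcript of 11971 nt in 65 exons is the longest of the group, and the trend alone came to 1.82. Removing the trend gave 112, 80.1 and 56.0 CPM for WT, against 25.1, 39.6 and 22.9 CPM for TET2KO. Those groups did not overlap, as in 59.3% of all genes. Fbn1 fell by 1.51 ± 0.28 on this scale (adjusted p = 0.0047), and it passed in the same direction without each library in turn. Gm9913, annotated as protein coding, shares 2442 nt of exon with Fbn1 on the opposite strand and held 0 to 14 reads per library. The antisense gene Gm30003 likewise shares 267 nt with Eln and held 0 to 8 reads. Not given in the sources used here is the strand setting of the counting, so reads of such stretches cannot be assigned.

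Mfap4 encodes a fibrinogen-domain glycoprotein that binds fibrillin and tropoelastin (ENSMUSG00000042436, chromosome 11, 61485431 to 61488900, plus strand). Levels of Mfap4 were 7.73, 11.2 and 10.4 CPM across WT, compared with 27.1, 14.7 and 24.7 CPM across TET2KO. Every TET2KO library stood above every WT library. Mfap4 rose 2.26-fold, from 9.80 ± 1.84 to 22.2 ± 6.57 CPM (1.18 ± 0.27 on the log2 scale, adjusted p = 0.0087). At 1722 nt its transcript is among the shorter ones of the group, where the trend alone came to -0.36. The trend-removed log2 fold change was 1.56 ± 0.28 (adjusted p = 0.0045), with 6.92, 10.1 and 8.88 CPM in WT, against 33.4, 15.2 and 28.2 CPM in TET2KO. Mfap4 passed in the same direction under all 20 alternatives of the first estimate (log2 fold change 1.02 to 1.77) and all 9 of the trend-removed one (1.33 to 1.82). Exons of Mfap4 share 89 nt with Mapk7 on the opposite strand, a gene at 0.515 ± 0.439 CPM in WT and 3.49 ± 1.98 CPM in TET2KO.

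Mfap5 encodes the small microfibril-associated glycoprotein MAGP-2 (ENSMUSG00000030116, chromosome 6, 122505845 to 122529290, plus strand). In WT the libraries read 64.2, 72.6 and 101 CPM, while 37.1, 47.5 and 56.7 CPM were read in TET2KO. The groups did not overlap, and TET2KO replicate 1 was the lowest. Mfap5 was 1.69-fold lower in the libraries labelled TET2KO (log2 fold change -0.75 ± 0.24, adjusted p = 0.025). Scaled by library totals it did not pass (-0.32, adjusted p = 0.21), nor without WT replicate 2 (-0.82, adjusted p = 0.054), WT replicate 3 (-0.55, adjusted p = 0.10) or TET2KO replicate 1 (-0.57, adjusted p = 0.058). The trend alone came to -0.94 for its transcript of 1506 nt and 46.4% GC. The trend-removed log2 fold change was 0.20 ± 0.21 (95% interval -0.28 to 0.67, adjusted p = 0.46).

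**Figure D2:**
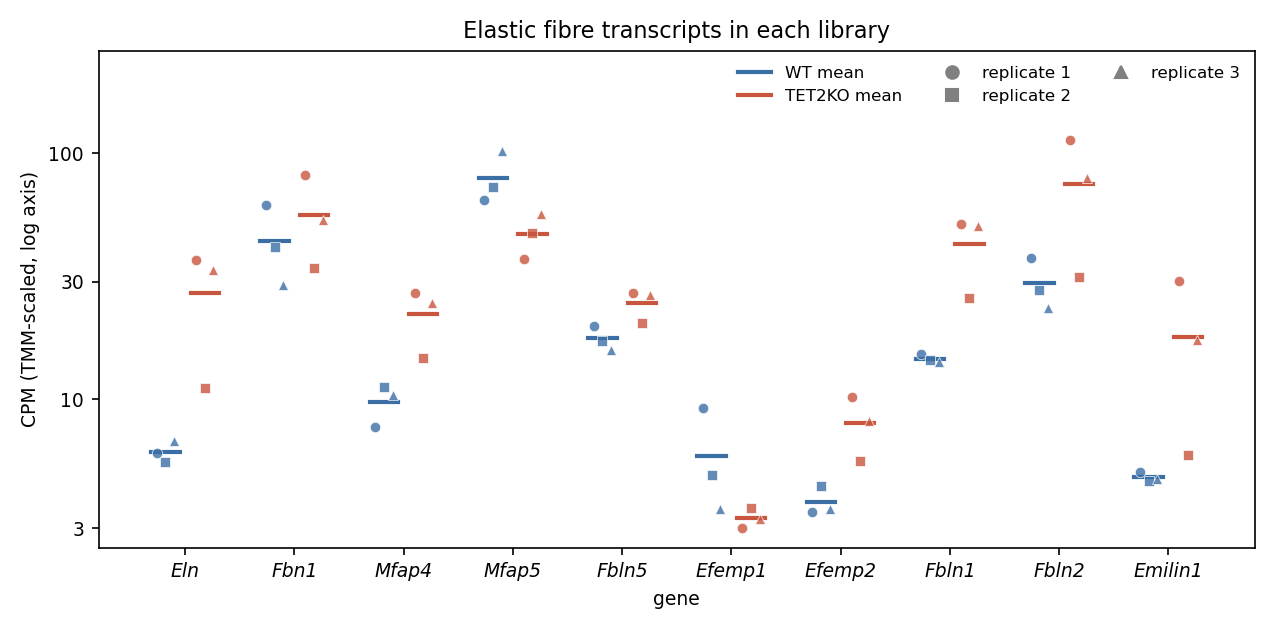
CPM of the 10 elastic fibre genes (y axis, log scale) in each WT (blue) and TET2KO (red) library, with replicates as marker shapes and group means as bars. TET2KO replicate 2, the red square, lies nearest the WT points in Eln, Mfap4, Fbln5, Efemp2, Fbln1, Fbln2 and Emilin1, the genes higher as counted. The groups overlap in Fbn1, Efemp1 and Fbln2.

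The short fibulins tether tropoelastin to microfibrils and to lysyl oxidases. Efemp2, also called fibulin-4, is required for elastin crosslinking (ENSMUSG00000024909, chromosome 19, 5473954 to 5482517, plus strand). It held 3.50, 4.46 and 3.58 CPM in the libraries labelled WT and 10.3, 5.64 and 8.19 CPM in those labelled TET2KO, with no overlap. Efemp2 was 2.09-fold higher (log2 fold change 1.06 ± 0.27, adjusted p = 0.013) and remained higher with the trend removed (0.68 ± 0.20, adjusted p = 0.023). As counted it did not pass without WT replicate 1 (0.99, adjusted p = 0.055) or WT replicate 3 (1.00, adjusted p = 0.054). The trend-removed value of Efemp2 lost its call when WT replicates 1 or 3 or TET2KO replicates 1 or 3 were left out (adjusted p = 0.088, 0.083, 0.079 and 0.068). Its exons share 173 nt with Mus81 on the opposite strand, which stood at 39.9 ± 4.67 CPM in WT and 24.9 ± 4.14 CPM in TET2KO.

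Fbln5, fibulin-5, carries tropoelastin onto microfibrils and binds integrins (ENSMUSG00000021186, chromosome 12, 101746565 to 101819055, minus strand). It stood at 19.9, 17.3 and 15.8 CPM in the libraries labelled WT and 27.1, 20.4 and 26.5 CPM in those labelled TET2KO. The groups did not overlap, although WT replicate 1 and TET2KO replicate 2 lay close together. Fbln5 passed just inside the threshold as counted (log2 fold change 0.48 ± 0.18, adjusted p = 0.047). With DESeq2, its size factors, upper-quartile scaling, limma-voom, no filter or the stricter filter it did not pass (adjusted p = 0.061, 0.060, 0.056, 0.054, 0.078 and 0.052). It did not pass without any 1 of WT replicates 1, 2 and 3 or TET2KO replicates 1 and 3 (adjusted p = 0.079, 0.14, 0.17, 0.093 and 0.13), while without TET2KO replicate 2 it did (0.62, adjusted p = 0.0011). Fbln5 was lower with the trend removed (-0.38 ± 0.13, adjusted p = 0.041). That call was lost in the same way without each of those 5 libraries (adjusted p = 0.15, 0.070, 0.088, 0.13 and 0.10), and a trend on merged exon length gave a log2 fold change of 0.044 (adjusted p = 0.80).

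Efemp1, also called fibulin-3, is a related fibulin of fascia and basement membranes (ENSMUSG00000020467, chromosome 11, 28853204 to 28926743, plus strand). Efemp1 stood at 9.22, 4.95 and 3.58 CPM (192, 121 and 64 reads) in the WT libraries, against 3.02, 3.64 and 3.27 CPM (112, 109 and 103 reads) under the TET2KO label. WT replicate 3 fell among the TET2KO libraries, so the groups overlapped. Efemp1 did not pass (log2 fold change -0.84 ± 0.36, 95% interval -1.67 to -0.013, adjusted p = 0.070), and its trend-removed value was -0.089 ± 0.32 (adjusted p = 0.83). It passed as lower without TET2KO replicate 2 (-0.90, adjusted p = 0.018) and without WT replicate 3 (-1.10, adjusted p = 0.042).

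Fbln1 encodes fibulin-1, a glycoprotein within the elastin core and in basement membranes (ENSMUSG00000006369, chromosome 15, 85205949 to 85286535, plus strand). Levels of Fbln1 were 15.3, 14.4 and 14.2 CPM across WT, compared with 51.5, 25.9 and 50.6 CPM across TET2KO. The WT libraries lay close together, and each TET2KO library lay above them. Fbln1 rose 2.92-fold, from 14.6 ± 0.574 to 42.6 ± 14.6 CPM (1.54 ± 0.27 on the log2 scale, adjusted p = 0.0065). It remained higher in the trend-removed estimate (0.46 ± 0.13, adjusted p = 0.021), at 21.9, 20.0 and 20.7 CPM in WT, against 28.6, 24.8 and 32.7 CPM in TET2KO. As counted Fbln1 passed under all 20 alternatives. The trend-removed value did not pass without WT replicate 1, 2 or 3 or TET2KO replicate 3 (adjusted p = 0.060, 0.088, 0.073 and 0.094), where the log2 fold change of Fbln1 was 0.48, 0.41, 0.45 and 0.37.

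Fbln2 encodes fibulin-2, a larger fibulin that bridges fibrillin-1 and elastin (ENSMUSG00000064080, chromosome 6, 91212455 to 91272540, plus strand). It held 37.6, 27.8 and 23.6 CPM in the libraries labelled WT and 113, 31.5 and 79.4 CPM in those labelled TET2KO. TET2KO replicate 2 lay below WT replicate 1, and the other TET2KO libraries lay far above all WT libraries. Fbln2 was 2.52-fold higher as counted (log2 fold change 1.33 ± 0.43, adjusted p = 0.028). Without each of WT replicates 1, 2 and 3 and TET2KO replicates 1 and 3 it did not pass (adjusted p = 0.052, 0.086, 0.10, 0.058 and 0.067), and without TET2KO replicate 2 it did (1.72, adjusted p = 7.2e-07). Fbln2 was lower with the trend removed (-0.56 ± 0.16, adjusted p = 0.022), with no overlap. That call was lost without WT replicate 1 (-0.38, adjusted p = 0.095) and TET2KO replicate 3 (-0.58, adjusted p = 0.067). It was also lost with the merged exon length (-0.25) and turned to 0.47 with a trend on length alone, where it did not pass (adjusted p = 0.23).

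Emilin1 encodes emilin-1, a glycoprotein at the interface of the elastin core and the microfibrils that also limits the processing of TGF-beta precursor (ENSMUSG00000029163, chromosome 5, 30913402 to 30921277, plus strand). In WT the libraries read 5.09, 4.66 and 4.76 CPM, while 30.3, 5.97 and 17.4 CPM were read in TET2KO. The TET2KO libraries were widely spread, and replicate 2 lay just above the WT libraries. Emilin1 was 3.71-fold higher as counted (log2 fold change 1.89 ± 0.52, adjusted p = 0.015). It did not pass without WT replicate 1, 2 or 3 (adjusted p = 0.052, 0.052 and 0.059), where the log2 fold change of Emilin1 was 1.91, 1.85 and 1.87. Its trend-removed value was -0.17 ± 0.22 (95% interval -0.66 to 0.32, adjusted p = 0.55), and a trend on length alone gave 1.30 (adjusted p = 0.037).

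Across the 10 genes the log2 fold change as counted followed the GC content of the transcript more closely than its length. Spearman's rho was 0.95 with GC and 0.25 with length, as a description over 10 genes that share the same 6 libraries. Eln and Emilin1 have transcripts of 3853 and 3852 nt with 58.8 and 61.1% GC, and had the largest fold changes. Efemp1 and Mfap5, with 44.9 and 46.4% GC, had the negative ones. Over all genes Spearman's rho with length was 0.61, while rho with GC was not computed over all genes. For the trend-removed log2 fold changes of the 10 genes rho with length was -0.72, so these still ran with length, in the opposite direction. No trend-removed rho over all genes was computed to set beside it. Fbn1 departed furthest from the trend in the negative direction and Mfap4 in the positive one. How much of each difference comes from the library and how much from the cells was not tested.

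**Figure D3:**
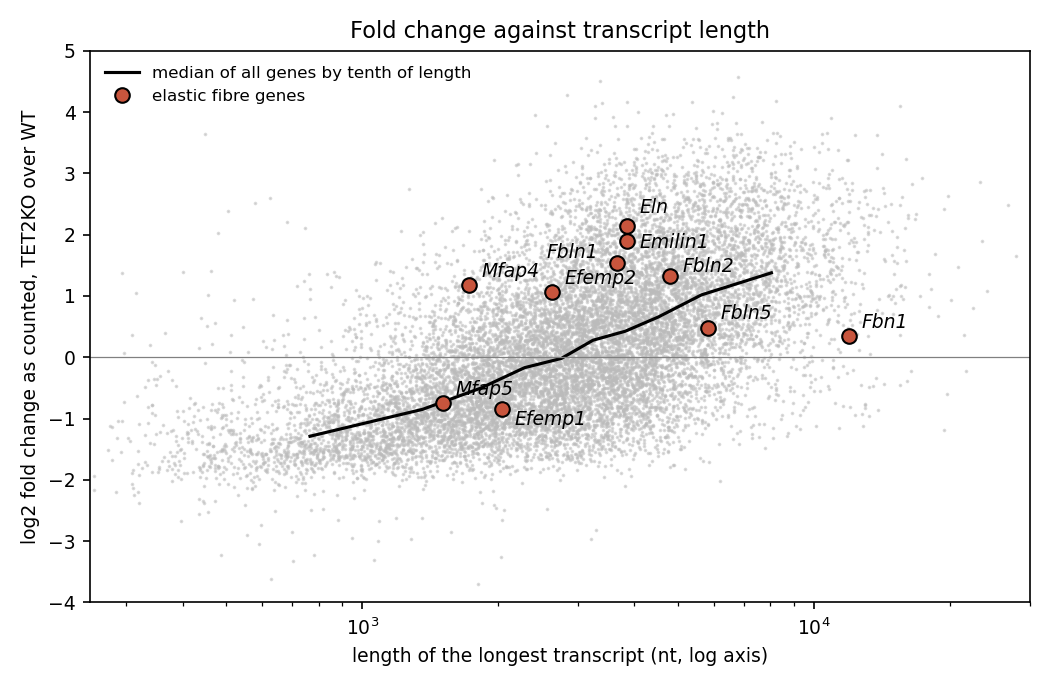
Log2 fold change as counted (y axis) against the length of the longest transcript (x axis, log scale) for all tested genes (grey), with the median by bin of length, bins holding equal numbers of genes (black line) and the 10 elastic fibre genes (red). Mfap4 lies furthest above the line among the short transcripts, and Fbn1, at 11971 nt, lies below it at 0.35.

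Per length, the elastic fibre transcripts of the WT hearts were dominated by Mfap5. It stood at 34.6 ± 6.71 TPM, followed by Mfap4 (8.06 ± 1.91), Fbln2 (7.36 ± 1.90), Fbn1 (5.76 ± 2.21), Fbln1 (5.28 ± 0.494), Fbln5 (4.79 ± 0.722), Efemp1 (4.59 ± 2.26), Efemp2 (2.31 ± 0.509), Emilin1 (1.54 ± 0.120) and Eln (1.19 ± 0.0301 TPM). The libraries of Mfap5 and Mfap4 did not overlap, nor did those of Efemp2 and Emilin1 or of Emilin1 and Eln. All other neighbours in this order overlapped. In the libraries labelled TET2KO the order was Mfap5 (31.9 ± 5.52 TPM), Fbln2 (29.7 ± 18.5), Mfap4 (28.8 ± 10.7), Fbln1 (24.4 ± 9.85), Fbn1 (11.7 ± 5.97), Fbln5 (10.5 ± 2.43), Emilin1 (9.28 ± 6.98), Eln (8.45 ± 4.80), Efemp2 (7.58 ± 2.87) and Efemp1 (3.96 ± 0.0676 TPM). There only Efemp2 and Efemp1 were neighbours that did not overlap.

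The make-up of the group differed with these levels. Mfap5 made up 37.7, 44.1 and 55.8% of the 10 genes' summed TPM in WT and 12.7, 29.7 and 21.3% in TET2KO. Every TET2KO library had a lower share than every WT library. Eln made up 1.57, 1.496 and 1.65% in WT and 5.58, 3.08 and 5.60% in TET2KO. The share of Fbln1 was 6.40 to 7.37% in WT and 13.3 to 15.7% in TET2KO, and that of Mfap4 8.48 to 12.7% and 17.2 to 17.3%. Fbn1 had shares of 4.74 to 10.7% and 5.96 to 8.22%, which overlapped. The summed TPM of the group was 73.6, 78.9 and 73.8 in WT and 220, 99.5 and 179 in TET2KO. In TMM-scaled CPM the sums were 230, 205 and 213 in WT and 417, 200 and 354 in TET2KO. On that scale TET2KO replicate 2 lay below every WT library. The deposited TPM carries no TMM factors, and on log2(TPM + 1) the median log2 fold change of all genes was 0.41, against 0.046. These shares are sums that must reach 100%, carry the same length trend, and were given no test. The authors' TPM divides Eln by 8098 nt and Mfap5 by 3589 nt, the merged exons of the gene, against 3853 and 1506 nt of the longest transcript. By CPM per kb of the longest transcript Eln was at position 8 of the 10 in WT and 5 in TET2KO, and Mfap5 was highest in both groups.

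**Figure D4:**
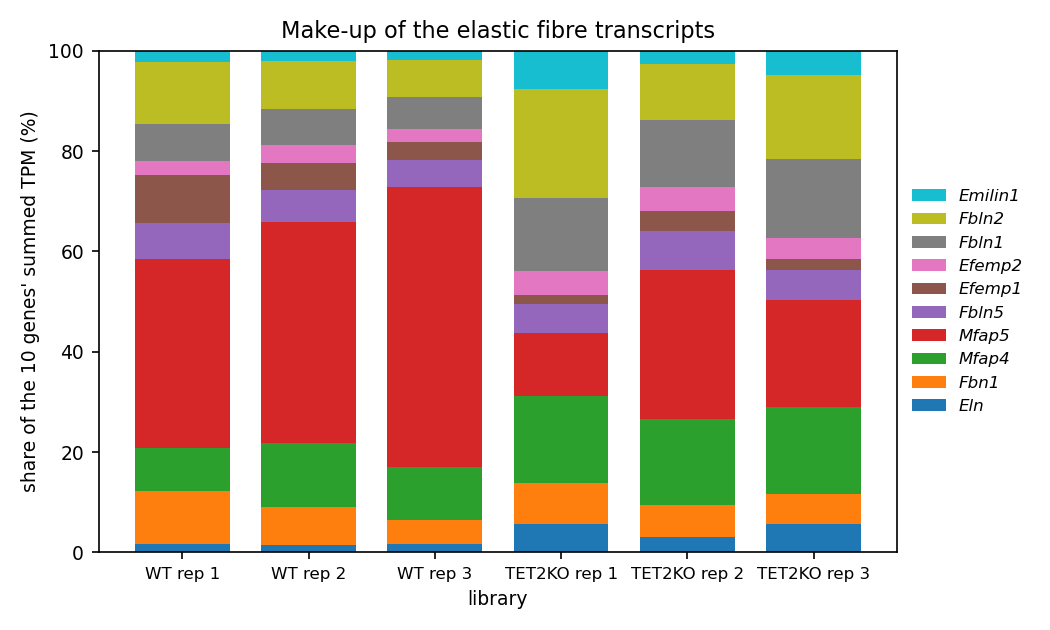
Share of each gene in the summed TPM of the 10 elastic fibre genes (y axis, %) in each library (x axis). Mfap5 (red) takes 37.7 to 55.8% in the WT libraries and 12.7 to 29.7% in the TET2KO libraries, with replicate 2 nearest to WT.

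The genes most like Eln over the 6 libraries, by Pearson's r of log2 CPM and leaving out the elastic fibre genes themselves, were Cmya5, a cardiomyocyte myospryn (r = 0.9997), Abtb2 (0.9996) and Plec, the linker plectin (0.999). Cmya5 held 26.4, 22.03 and 30.5 CPM in WT, against 367, 58.9 and 305 CPM in TET2KO. Like Eln, it was lowest in replicate 2 among the libraries labelled TET2KO. Among all tested genes ranked by this measure Fbln1 stood at position 309 (r = 0.991), Emilin1 at 2161 (0.966), Mfap4 at 2461 (0.961) and Efemp2 at 2651 (0.957). Fbln5 (0.930), Fbln2 (0.927) and Fbn1 (0.575) came further down, and Efemp1 and Mfap5 had r of -0.66 and -0.72. These 6 libraries fall into 2 groups, so the measure mostly restates the difference between them and is a description.

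Other genes of elastic fibre assembly and turnover were counted in the same fits. Of 43 such genes 39 were tested, and 23 were higher in the libraries labelled TET2KO, 2 lower and 14 not past the test, beside the 33.4% higher and 29.4% lower over all genes. Their median log2 fold change was 1.13, close to that of the 10 elastic fibre genes. With the trend removed 14 were higher and 9 lower, with a median of 0.19, beside 21.9% and 24.3% over all genes. Without WT replicate 3 there were 14 higher as counted, in a fit that called 41.2% of all genes. The trend-removed counts were 7 higher and 3 lower without TET2KO replicate 3, 8 higher without WT replicate 3, 3 lower without WT replicate 1 and 5 lower without TET2KO replicate 1, in fits that called 27.4, 28.6, 28.3 and 33.3% of all genes. Mmp7, Elane, Emilin3 and Fbln7 were not tested, and Mmp7 had 0 reads in every library.

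Latent TGF-beta binding proteins, which anchor TGF-beta to microfibrils and in part guide elastin assembly, were all higher as counted (4 of 4). With the trend removed 1 was higher, 1 lower and 2 did not pass, with a median of -0.19. Ltbp2 passed as counted (1.81 ± 0.58, adjusted p = 0.027), although its groups overlapped. Its trend-removed value of -0.60 ± 0.23 did not pass (adjusted p = 0.062). Ltbp4, which binds fibulin-4 and fibulin-5 during assembly, held 15.0, 12.6 and 12.8 CPM in WT, against 278, 30.7 and 167 CPM in TET2KO (log2 fold change 3.56 ± 0.70, adjusted p = 0.0065). It remained higher with the trend removed (0.91 ± 0.25, adjusted p = 0.017). Ltbp3 had a log2 fold change of 2.61 ± 0.55 and a trend-removed one of 0.17 ± 0.17 that did not pass (adjusted p = 0.45). Ltbp1 passed as higher as counted (1.19 ± 0.34) and as lower with the trend removed (-0.54 ± 0.14, adjusted p = 0.014). The as-counted call of Ltbp1 was lost when WT replicates 2 or 3 or TET2KO replicate 3 were left out (adjusted p = 0.061, 0.077 and 0.055).

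Crosslinking genes were higher in 4 of 6 as counted and 2 of 6 with the trend removed, with none lower in either (0 and 0). Loxl1, the lysyl oxidase that fibulin-5 recruits to elastin, held 5.71, 5.48 and 5.10 CPM in WT, against 52.7, 13.4 and 43.6 CPM in TET2KO. Its groups did not overlap, and it rose by 2.75 ± 0.47 on the log2 scale (adjusted p = 0.0065, trend-removed 1.00 ± 0.21, adjusted p = 0.0066). Atp7a, the copper transporter that supplies lysyl oxidases, rose by 1.77 ± 0.34 (trend-removed 1.42 ± 0.27, adjusted p = 0.0048). Loxl2 had a log2 fold change of 1.64 ± 0.43 and a trend-removed one of 0.30 ± 0.24 (adjusted p = 0.33), and as counted it did not pass without WT replicate 3 (1.43, adjusted p = 0.058).

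Microfibril-binding genes of the ADAMTS family were higher in 7 of 9 as counted, and 2 were higher and 1 lower with the trend removed. Adamtsl4, which promotes fibrillin-1 deposition, stood at 2.76 ± 0.555 CPM in WT and 17.4 ± 9.79 CPM in TET2KO (log2 fold change 2.66 ± 0.49, trend-removed 0.66 ± 0.22, adjusted p = 0.034). Thsd4 rose by 2.73 ± 0.52 from 0.331 ± 0.0402 CPM, and its trend-removed value of 0.77 ± 0.30 did not pass (adjusted p = 0.060). Adamtsl5 rose by 1.43 ± 0.29 (trend-removed 0.84 ± 0.19, adjusted p = 0.0077). Under a trend on merged exon length Adamtsl5 stood at -0.14 and did not pass (adjusted p = 0.39).

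Among the other microfibril and fibulin-family genes 5 of 10 tested were higher as counted and none lower (0). Mmrn2, an endothelial relative of the emilins, held 8.59, 8.502 and 7.17 CPM in WT, against 40.3, 16.3 and 35.1 CPM in TET2KO (log2 fold change 1.92 ± 0.33, trend-removed 0.84 ± 0.17, adjusted p = 0.0063). Emilin2 rose by 2.54 ± 0.49 (trend-removed 1.01 ± 0.28, adjusted p = 0.018), whereas the trend-removed value of Emilin1 was -0.17. Mfap3l had a log2 fold change of 1.13 ± 0.26 and a trend-removed one of 0.74 ± 0.22. With a trend on length alone Mfap3l stood at 0.086 and did not pass. In the trend-removed estimate 5 of these genes were higher and 2 lower. Mfap1a, which was higher in both estimates (0.65 ± 0.18 and 0.61 ± 0.14), encodes a splicing factor despite its microfibril name, and like the next gene it is named for this after its values were seen. Fbn2, fibrillin-2, stood low, at 0.475 ± 0.304 CPM in WT and 0.600 ± 0.348 CPM in TET2KO. As counted it did not pass (0.30 ± 0.64, adjusted p = 0.695), and the trend alone came to 1.84. With the trend removed alone it passed, as lower (-1.76 ± 0.49, adjusted p = 0.019).

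Elastin-degrading proteases differed in direction: of 7 tested, 2 were higher and 2 lower as counted, and 3 higher and 3 lower with the trend removed. Mmp2, a gelatinase of fibroblasts, held 5.28, 4.78 and 4.76 CPM in WT, against 49.7, 11.1 and 40.4 CPM in TET2KO (log2 fold change 2.77 ± 0.50, trend-removed 1.86 ± 0.36, adjusted p = 0.0051). Mmp12, the macrophage elastase, stood at 3.50, 1.84 and 2.13 CPM in WT, against 0.782, 0.834 and 0.826 CPM in TET2KO, with no overlap. It fell by 1.61 ± 0.33 on the log2 scale (adjusted p = 0.0066), and by 1.05 ± 0.31 with the trend removed (adjusted p = 0.024). Ctsk, cathepsin K, had a log2 fold change of -0.86 ± 0.20 and a trend-removed one of -0.061 ± 0.14 that did not pass (adjusted p = 0.74). Scaled by library totals Ctsk did not pass (-0.44, adjusted p = 0.10). Of the elastin receptor complex, Glb1, a beta-galactosidase gene, was higher (1.15 ± 0.33, trend-removed 1.06 ± 0.28). Its other two genes, Neu1 and Ctsa, did not pass as counted and were lower with the trend removed (-0.87 ± 0.15 and -0.69 ± 0.16). Glb1 lost its call when WT replicates 1 or 3 or TET2KO replicate 3 were left out (adjusted p = 0.075, 0.053 and 0.058).

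**Figure D5:**
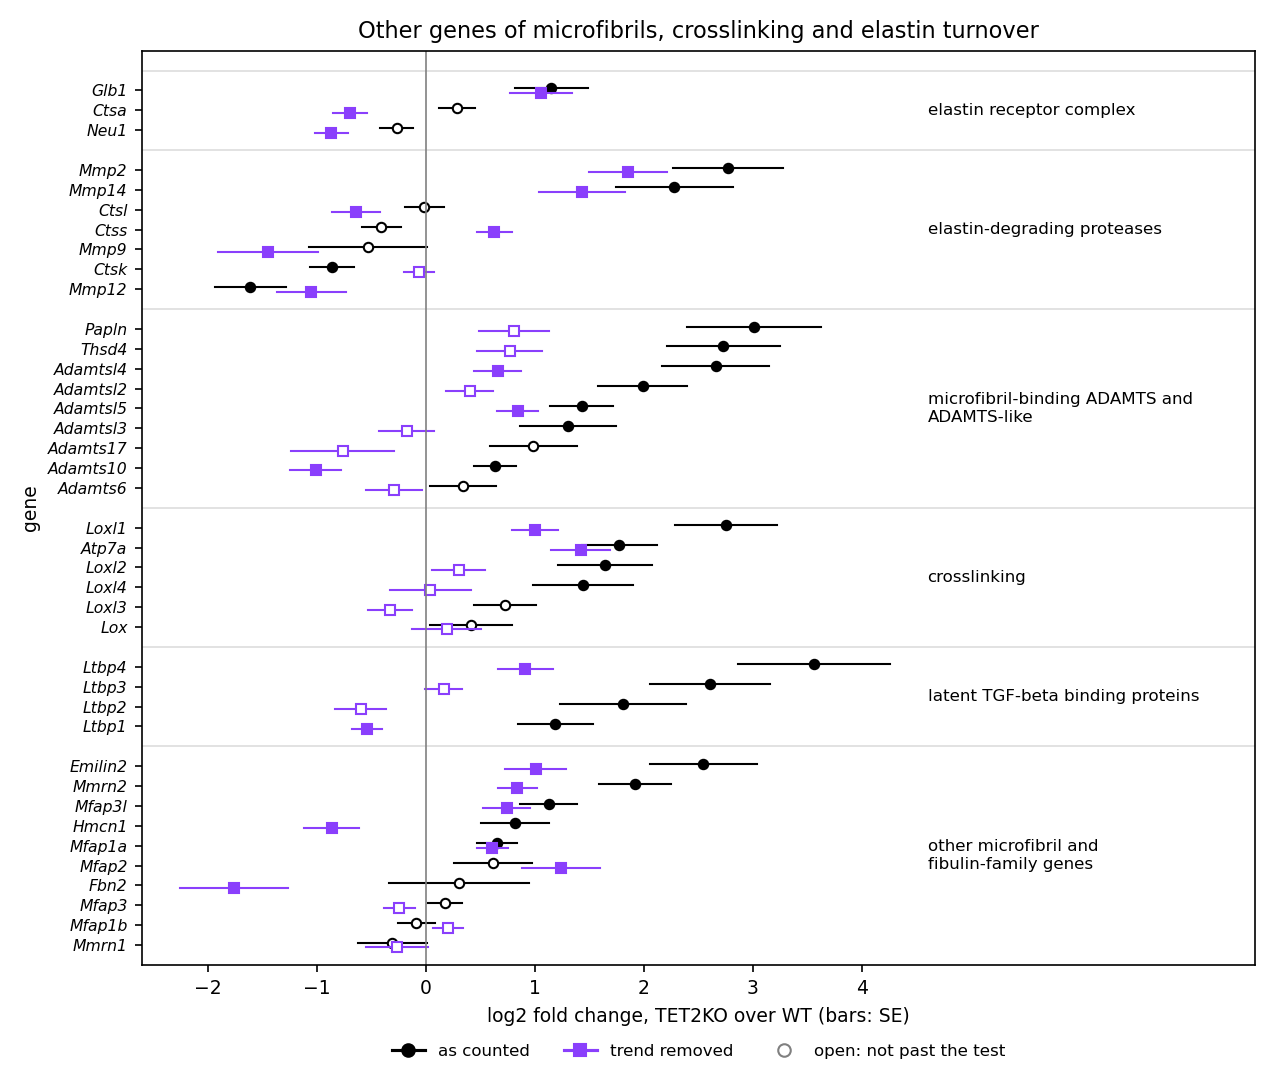
Log2 fold change (x axis, TET2KO over WT, bars are SE) of the 39 tested genes of elastic fibre assembly and turnover (y axis, grouped by role), as counted (black circles) and with the trend removed (purple squares), filled where the test was passed. Loxl1, Atp7a, Ltbp4 and Mmp2 are filled to the right of 0 in both estimates, and Mmp12 to the left in both.

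Markers of the cells that make elastic fibres did not share 1 direction, and their counts stand beside 33.4% of all genes higher and 29.4% lower as counted (21.9% and 24.3% with the trend removed). Of 14 fibroblast markers 4 were higher and 6 lower as counted (1 and 4 with the trend removed), and their summed level was 2322 to 2391 CPM in WT and 2143 to 2315 CPM in TET2KO. Of 10 smooth muscle markers 6 were higher and 1 lower (3 and 3), with sums of 318 to 463 and 410 to 520 CPM. The most abundant of them, Acta2, stood at 203 and 192 CPM on average and did not pass. Of 8 pericyte markers 4 were higher and 3 lower (3 and 3), with sums of 2007 to 2228 and 1277 to 1791 CPM. Much of the pericyte sum was Rgs5, at 1888 CPM on average in WT and 1161 CPM in TET2KO. Next in abundance, Abcc9 was higher (1.74 ± 0.33, trend-removed 0.55 ± 0.13) and Kcnj8 lower (-0.87 ± 0.19, trend-removed -1.06 ± 0.18). The pericyte sum thus mostly follows Rgs5. Of 12 endothelial markers 9 were higher and 2 lower (6 and 2), with sums of 533 to 575 and 601 to 1075 CPM. Of 10 macrophage markers 3 were higher and 3 lower (2 and 3), with sums of 689 to 822 and 301 to 453 CPM. Much of the macrophage sum was Lyz2, at 567 CPM on average in WT and 187 CPM in TET2KO. Of 10 cardiomyocyte markers 5 were higher and 4 lower (6 and 2), with sums of 75934 to 93616 and 52520 to 57378 CPM. The most abundant of them, Myl2 and Myl3, were lower in both estimates and were the 2 called lower with the trend removed. Tnnt2, next in abundance, did not pass as counted (-0.11 ± 0.21) and was higher with the trend removed (0.64 ± 0.14). For 8 of 9 mesothelial markers, Upk3b and Msln among them, counts were too low to test, and Wt1 was higher (log2 fold change 1.39). All 5 tested erythroid markers were lower, with sums of 1554 to 7037 CPM in WT and 165 to 741 CPM in TET2KO. The part of these cell types in the elastic fibre results was not tested.

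The authors' deposited table gives the same direction for each of the 10 genes. Its log2 fold changes in the authors' deposited table are 2.08 for Eln, 1.82 for Emilin1, 1.48 for Fbln1 and 1.12 for Mfap4. At the threshold used here 2 genes differ in their call in the authors' deposited table. Fbln5 does not pass in the authors' deposited table (log2 fold change 0.42, adjusted p = 0.068), and Efemp1 passes as lower (-0.89, adjusted p = 0.033). That table rests on the same 6 libraries and carries the same length trend.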

How the data were processed

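Poly(A)-selected RNA of 3 WT and 3 TET2KO hearts was sequenced as read pairs, all under 1 batch label. Trimmomatic 0.36, STAR 2.5.2b, DESeq2, featureCounts and Subread 1.5.2 were used, on GRCm38 (mm10), per the submitters' processing notes. Not given in the sources used here are annotation release and strand setting.

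Counts of reads for each Ensembl gene were deposited raw, with no normalization. The authors also deposited TPM values, which divide by gene length and library total. In 80.7% of 4252 genes above 500 reads in WT replicate 1, the length implied by count and TPM lay within 1% of the merged exon length in GENCODE M21. The authors' comparison table holds a normalised signal (counts over 1 size factor per library), log2 fold changes and p-values with their adjusted form, per the file headers. Columns were matched to samples by library name.

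Counts were tested by quasi-likelihood in edgeR 4.0.16 (R 4.3.3, robust fit) with TMM factors, filterByExpr and group as the only term, adjusted by Benjamini-Hochberg over all tested genes at 0.05. SE was obtained by dividing the size of the log2 fold change by the root of the F statistic, and 95% intervals are not adjusted for multiple testing. The trend on transcript length and GC (longest transcript of GENCODE M21, protein-coding where there is one, matched for 14341 tested genes) was estimated in mgcv 1.9.3 (basis size 6 for each axis), library by library, on log2 CPM with prior count 2 relative to the mean over libraries, and used as an offset. Alternatives used DESeq2 1.42.0 and limma 3.58.1. Counts of replicates differed beyond sampling noise in every pair. Promoter windows come from RefSeq (GRCm38.p6).

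The 10 genes and all lists were chosen with earlier results of these data known, so no list was tested as such. Named beside the 10 are Tet2 and the 3 genes most correlated with Eln, leaving out predicted genes. In each role of the assembly and turnover list the rule named up to 3 genes with the smallest p past the test. Ltbp2, Neu1, Ctsa, Mfap1a and Fbn2 are named beyond that rule, as are overlapping and untested genes. Of each marker list the rule allowed up to 3 of the most abundant.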

Additional observations from a re-analysis of the deposited data

How the results depend on the processing

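Leaving out each library in turn gave 3 to 7 higher and 0 to 2 lower elastic fibre genes as counted, with a median log2 fold change of 0.91 to 1.35. With the trend removed the same gave 1 to 4 higher and 1 to 3 lower genes and a median of -0.068 to 0.18, which turned negative without WT replicate 2 (-0.025) and TET2KO replicate 3 (-0.068). For the assembly and turnover list the ranges were 14 to 27 higher and 2 to 3 lower as counted, and 7 to 17 higher and 3 to 10 lower with the trend removed. Library totals gave 0 lower elastic fibre genes and 1 lower list gene, and both TPM scales gave 0 and 0. On log2(TPM + 0.1) the median was 1.70. DESeq2 and the fit with no filter each gave 2 lower genes, and these, DESeq2 size factors, upper-quartile scaling and the stricter filter gave 6 higher each. Limma-voom gave 4 higher, and the stricter filter gave 1 lower list gene. Trend removal gave 3 higher and 3 lower elastic fibre genes (median 0.055), and 14 higher and 9 lower list genes. With the merged exon length it gave 3 higher, 1 lower (median 0.12), and 6 lower list genes. A trend on length alone gave 5 higher and 2 lower (median 0.75), and 15 higher and 4 lower list genes.

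Against the first estimate, signs turned with the trend removed for Fbn1 (-1.51), Mfap5 (0.20), Fbln5 (-0.38), Fbln2 (-0.56), Emilin1 (-0.17) and Ltbp1 (-0.54). With merged exon length they turned for Fbn1 (-1.20), Efemp1 (0.045), Fbln2 (-0.25), Ltbp1 (-0.35), Adamtsl5 (-0.14) and Ctsk (0.042), and with length alone for Fbn1 (-1.09) and Fbln5 (-0.49). Against the trend-removed estimate, Mfap5 (-0.46), Fbln5 (0.044), Efemp1 (0.045) and Emilin1 (0.19) turned with merged exon length, and Mfap5 (-0.13), Fbln2 (0.47) and Emilin1 (1.30) with length alone. Leave-outs turned Efemp1 without WT replicate 1 (range over leave-outs -0.36 to 0.36), Emilin1 without TET2KO replicate 2 (-0.40 to 0.0064) and Mfap5 without TET2KO replicate 3 (-0.015 to 0.35), where none of the 3 passed. The cause was not tested. Over all single-gene values and alternatives, 503 kept direction and call, 75 lost the call in the same direction, 6 gained one and 24 turned in sign.

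Replicate numbers did not pair the libraries: deviations of same-numbered libraries correlated at 0.039, -0.23 and -0.013, and no sample source is named as shared. With the number as a replicate block, 6 elastic fibre genes were higher and 1 lower as counted, and 3 and 2 with the trend removed, where Fbln5 was the 1 gene to lose its call in each (adjusted p = 0.094 and 0.091). Calls over all genes fell from 9037 to 7618.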
